A study of Mus musculus with 6 samples.

Results

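The genes described here are 10 chemokines of the CXC and CX3C families, taken by symbol from the 55453 symbols of the deposited count table. They were grouped by role into the neutrophil attractants Cxcl1, Cxcl2, Cxcl3 and Cxcl5, the interferon-induced T cell attractants Cxcl9, Cxcl10 and Cxcl11, and the homeostatic or membrane-bound Cxcl12, Cxcl16 and Cx3cl1. Poly(A) RNA was sequenced from 6 SB28 libraries (SB28 is a glioma line of the mouse, here with the strain label C57BL/6), of which 3 were labelled PP2A KO (PP2AcKO) and 3 labelled Wild Type (PP2AcWT). PP2Ac denotes the catalytic subunit of the serine/threonine phosphatase PP2A. The design text of the series describes SB28 tumours, subcutaneous or intracranial, taken 18 days after implantation from wild-type hosts and from LysMcrePP2Acfl/fl hosts, in which Cre is driven from a myeloid promoter. The sample labels name SB28 as the source and state neither a host, an age, a site nor how the knockout was made, so whether the deletion lay in the glioma cells or in host cells is not settled by them. They also do not say whether a group is 1 clone or whether its libraries came from separate cultures. The p-values therefore reflect only library-to-library spread, part or all of which may be technical.

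Chemokines are small secreted proteins that guide leukocytes along gradients through G protein-coupled receptors. CXC chemokines are named for a single residue between their first cysteines, and the CX3C member has a longer spacer there. Those of the neutrophil group signal through CXCR2 and are classic targets of NF-kB. Cxcl9, Cxcl10 and Cxcl11 signal through CXCR3 on activated T and NK cells and are induced by interferons, Cxcl12 signals through CXCR4 and also binds the scavenging receptor ACKR3, and Cxcl16 and Cx3cl1 are made as membrane-bound proteins that bind CXCR6 and CX3CR1. C57BL/6 mice carry a frameshift in Cxcl11, and the annotation lists that gene as a polymorphic pseudogene.

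Total counts per library ranged from 38735864 to 49344079. The message of the targeted gene, Ppp2ca, was at 274, 244 and 247 CPM (counts scaled to the size of each library) in PP2AcWT 1, 2 and 3 and at 217, 187 and 193 CPM in PP2AcKO 1, 2 and 3, so it was lower in the PP2AcKO libraries but far from absent (by -0.36 ± 0.08 (SE) on the log2 scale, with an adjusted p of 0.00377 in edgeR's quasi-likelihood test). Of the glial identity markers, Sox2 (116 ± 1.84 and 78.4 ± 4.39 CPM, SD, n = 3) and Nes (368 ± 20.04 and 164 ± 11.4 CPM) fell in PP2AcKO, as did Vim (4791 to 1882 CPM) and Cspg4 (8.66 to 0.127 CPM). Cspg4 passed the filter on low counts only through its PP2AcWT libraries. Sox9 (47.7 ± 4.56 to 182 ± 8.20 CPM) and Pdgfra (39.8 to 49.0 CPM) rose, Olig1 and Olig2 were at 0 counts in every library, and Gfap had 5 counts in PP2AcWT and 10 in PP2AcKO. Of 11 T and NK cell markers 6 were at 0 in every library, including Cd3e, Cd3g, Cd2 and Cd8a, and their summed level ran from 0.0504 to 0.137 CPM in PP2AcWT and from 0.0976 to 0.128 CPM in PP2AcKO. Of 8 neutrophil markers S100a9, Mpo, Csf3r and Retnlg were at 0, Ly6g had 3 and 5 counts in PP2AcWT and PP2AcKO, Elane 2 and 0 and Cxcr2 1 and 14, while the summed level went from 0.0454 to 0.137 CPM up to 3.36 to 4.01 CPM, nearly all of it S100a8 (0.0450 ± 0.00561 to 3.481 ± 0.232 CPM). The sum over 13 macrophage, monocyte and microglia markers was lower in PP2AcKO, 87.7 to 108 against 44.5 to 54.3 CPM, which follows Tmem119 (96.4 ± 10.9 to 43.6 ± 5.50 CPM). Of the other members that could be tested, Mrc1 (0.483 to 2.10 CPM) and Cd68 (3.01 to 4.43 CPM) rose. The rest of that list was too rare to test. Lyz2 had 1 and 44 counts in PP2AcWT and PP2AcKO, Ptprc 31 and 11, Csf1r 23 and 10, and Cx3cr1 7 and 4. P2ry12 had 1 and 7, Ly6c2 2 and 11, Ccr2 3 and 0, Itgam 0 and 2, Aif1 1 and 1, and Adgre1 0. The 6 dendritic cell markers summed to 4.15 to 4.31 and 4.73 to 5.47 CPM, with Xcr1 and Clec9a at 0. The 6 endothelial markers summed to 399 to 431 and 419 to 456 CPM, nearly all Cdh5, with Cldn5 at 0. The sum hides changes both ways, as Kdr rose (1.65 to 7.78 CPM) and Tek fell (1.40 to 0.295 CPM). Cdh5 and Pecam1 did not pass the test, and Emcn, not tested, had 17 and 1 counts. In bulk libraries fewer cells of a type and less RNA per cell cannot be told apart.

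Promoter sequences are given first because 3 neighbouring neutrophil attractants share a run of bases there. RefSeq windows of GRCm38.p6, from 250 bases before to 50 after a start, were found for 7 of the 10 genes, all but Cxcl5, Cxcl11 and Cxcl16. The windows of Cxcl1, Cxcl2 and Cxcl3 share GGGAATTTCCC, the longest run of bases (11) common to the 120 bases before their starts. It is a form of the NF-kB binding motif, and 14 of 32817 promoter windows hold it on either strand (0.0427%). The 120 bases before the start are shown for Cxcl1 (chr5:90891125-90891244, plus strand), Cxcl2 (chr5:90903779-90903898, plus strand) and Cxcl3 (chr5:90785981-90786100, plus strand), with matches to the kappaB consensus in capitals.
Cxcl1: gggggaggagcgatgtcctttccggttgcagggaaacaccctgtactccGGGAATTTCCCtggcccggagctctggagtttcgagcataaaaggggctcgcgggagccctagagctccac
Cxcl2: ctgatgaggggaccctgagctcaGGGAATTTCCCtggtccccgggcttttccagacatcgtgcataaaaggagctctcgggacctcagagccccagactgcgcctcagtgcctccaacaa
Cxcl3: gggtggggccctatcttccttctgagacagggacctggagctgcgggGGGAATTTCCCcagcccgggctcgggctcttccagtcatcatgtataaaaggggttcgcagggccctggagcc
In each of the 3 the capitals mark 2 overlapping matches. The first begins at base -71 from the start in Cxcl1, at -97 in Cxcl2 and at -73 in Cxcl3. The TATA-type run ATAAAAGG follows in all 3, at -34, -57 and -29, and is found in 1.76% of all windows. Over these 120 bases Cxcl1 and Cxcl3 share 84 aligned bases, Cxcl1 and Cxcl2 share 74, and Cxcl2 and Cxcl3 share 73. The RefSeq start used for Cxcl2 lies downstream of its GENCODE gene start, 90903871, which falls within the bases shown. For Cxcl1 and Cxcl3 the GENCODE starts, 90891241 and 90786103, lie close to the end of the bases shown. The positions and shared bases of Cxcl2 are therefore not directly comparable with those of Cxcl1 and Cxcl3.

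Cxcl10 and Cxcl9, neighbours on the same chromosome, are shown over 250 bases before the start because only the first of them gave appreciable counts. Capitals mark matches to the kappaB consensus and to the core of the interferon-stimulated response element (ISRE), a pair of GAAA runs with any 2 bases between them. Cxcl10 lies at chr5:92348890-92349139 and Cxcl9 at chr5:92328080-92328329, both on the minus strand.
Cxcl10: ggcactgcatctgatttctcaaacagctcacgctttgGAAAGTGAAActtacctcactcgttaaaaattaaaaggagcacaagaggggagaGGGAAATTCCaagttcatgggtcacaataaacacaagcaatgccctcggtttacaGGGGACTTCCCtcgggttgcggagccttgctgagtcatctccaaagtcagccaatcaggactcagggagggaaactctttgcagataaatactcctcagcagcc
Cxcl9: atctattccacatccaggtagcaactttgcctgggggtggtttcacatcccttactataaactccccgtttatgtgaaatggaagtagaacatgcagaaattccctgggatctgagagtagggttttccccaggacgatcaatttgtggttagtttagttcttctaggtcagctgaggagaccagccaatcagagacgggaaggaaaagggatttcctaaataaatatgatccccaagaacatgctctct
The Cxcl10 window holds the ISRE core once, at -213 to -204, a motif found in 3.43% of all windows. It also holds the kappaB consensus 3 times, at -159, -104 and -103, the last pair overlapping. The Cxcl9 window has no match to either. That consensus was found in 8.46% of all windows and in 4 of the 7 shown or searched here, Cxcl1, Cxcl2, Cxcl3 and Cxcl10. The windows of Cxcl12 and Cx3cl1 held none of the motifs searched, and the interferon-gamma type motif TTCNNNGAA, in 8.29% of all windows, was in none of the 7. A match is a description of letters, not a bound site, and a window without a match can still hold a variant that these patterns miss.

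**Figure D1:**
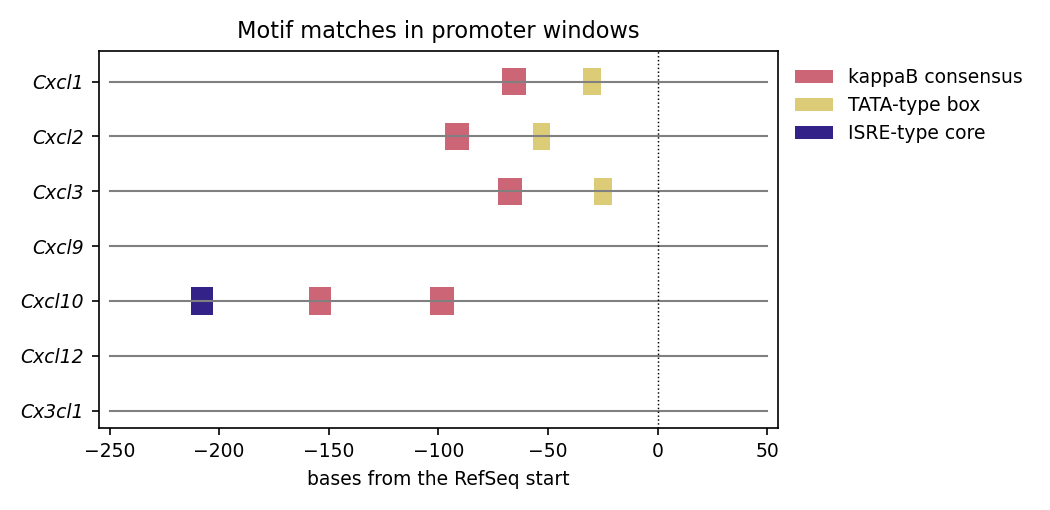
Positions of motif matches on either strand in the promoter windows of 7 chemokines, in bases from the RefSeq start (x axis). Red boxes are kappaB consensus matches, which lie between -97 and -61 in Cxcl1, Cxcl2 and Cxcl3 and farther upstream in Cxcl10; the blue box is the ISRE core and yellow boxes are ATAAAAGG.

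Of the 10 chemokines, 6 passed the filter on low counts and were tested, and the other 4 (Cxcl3, Cxcl5, Cxcl9 and Cxcl11) were too rare. Cxcl1, Cxcl2, Cxcl10 and Cxcl16 rose in PP2AcKO, and Cxcl12 and Cx3cl1 fell. All genes were tested together, with edgeR's quasi-likelihood test and Benjamini-Hochberg adjustment, and of 14877 genes 64.0% passed an adjusted p of 0.05, 31.9% higher and 32.1% lower in PP2AcKO. Passing the test was therefore common among expressed genes, and the size of a change says more than its call. The libraries of the groups did not overlap for any of the 6, 4 higher and 2 lower, against 68.3% of all tested genes (33.9% higher, 34.4% lower). Cxcl2 passed the filter only through its PP2AcKO libraries.

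**Figure D2:**
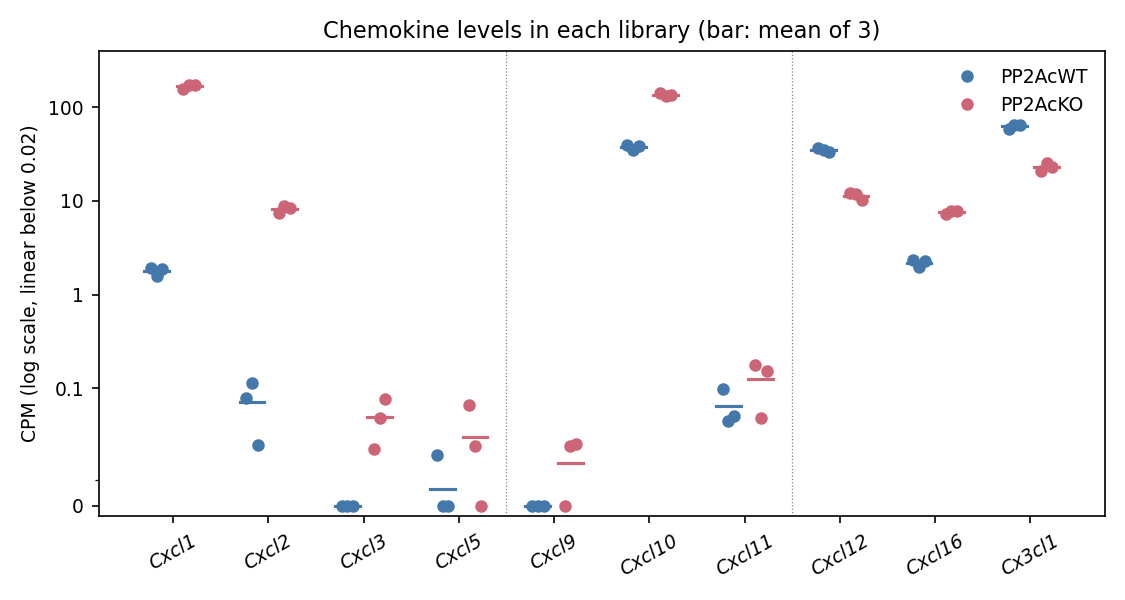
CPM of the 10 chemokines in each library (points) with the group mean (bars), on an axis that is logarithmic above 0.02 CPM and linear below; dotted lines separate the neutrophil attractants, the interferon-induced and the homeostatic or membrane-bound genes. Cxcl1 and Cxcl2 show the widest gaps between the groups, and Cxcl3, Cxcl5, Cxcl9 and Cxcl11 stay at or below 0.179 CPM in every library.

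Among the neutrophil attractants, Cxcl1 rose from a low level and Cxcl2 from a few counts per library. Cxcl1 (ENSMUSG00000029380.11, chromosome 5, 90891241 to 90893115, plus strand, GRCm38), the most abundant of the group, was at 1.92, 1.56 and 1.86 CPM in PP2AcWT 1, 2 and 3 and at 158, 171 and 173 CPM in PP2AcKO 1, 2 and 3. The groups lie far apart, and within each the libraries are close. The means of 1.78 ± 0.190 and 167 ± 8.41 CPM (SD, n = 3) give a log2 fold change of 6.55 (95% interval 6.31 to 6.78, SE 0.10, adjusted p = 1.04e-09), 93.6-fold. Only 0.786% of the tested genes had a larger absolute log2 fold change.

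Cxcl2, which encodes the attractant also called MIP-2, starts 12.63 kb beyond Cxcl1 (ENSMUSG00000058427.10, 90903871 to 90905938, plus strand). It had 4, 5 and 1 counts in PP2AcWT 1, 2 and 3, and 331, 358 and 332 counts in PP2AcKO 1, 2 and 3. In CPM these are means of 0.0723 ± 0.0444 and 8.21 ± 0.700 (SD, n = 3). The log2 fold change was 6.74 (95% interval 6.18 to 7.29, SE 0.24, adjusted p = 6.5e-08). Resting on 10 wild-type counts, the ratio of summed scaled counts was 110 with a 95% exact counting interval of 59.8 to 231. The intervals of the log2 fold changes of Cxcl1 and Cxcl2 overlap, whereas the levels in PP2AcKO differed, 89.2 ± 4.48 against 3.97 ± 0.339 CPM per kb of exon. Of the 50-base windows of its transcripts 5.84% also occur in Cxcl3, so a small part of its reads could be shared.

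Of the 8 neutrophil markers, S100a8 had 6 counts in PP2AcWT and 433 in PP2AcKO, the group in which Cxcl1 and Cxcl2 were also high. It passed the filter only through its PP2AcKO libraries, so these counts are a description. Cxcr2, not tested, had 1 and 14 counts. Ly6g had 3 and 5 counts, Elane 2 and 0, and S100a9, Mpo, Csf3r and Retnlg were at 0 in all 6 libraries. The part of neutrophil RNA in the result was not tested.

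Cxcl3 and Cxcl5 stayed at the edge of detection in both groups. Cxcl3 (chromosome 5, 90786103 to 90789600, plus strand) had 0 counts in each PP2AcWT library and 1, 2 and 3 in PP2AcKO 1, 2 and 3. Against an assumed floor of 3 counts over the wild-type group it was 2.16-fold higher, and the 95% exact counting interval of its ratio starts at 1.27. Of the 50-base windows of its transcripts 4.29% also occur in other genes, Cxcl2 among them, so its few reads could be shared. With no filter on low counts edgeR gave it an adjusted p of 0.0703. The promoter of Cxcl3 holds the same GGGAATTTCCC as those of Cxcl1 and Cxcl2, yet its level in PP2AcKO was 0.0141 ± 0.00775 CPM per kb. Cxcl5 (90759360 to 90761624, plus strand), whose product is also called LIX in mouse, had 1, 0 and 0 counts in PP2AcWT and 3, 1 and 0 in PP2AcKO. Its ratio of 4.33 has a counting interval of 0.428 to 213, so a difference was not detectable at this depth.

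The 4 genes belong to a cluster on chromosome 5 that reaches over 144.5 kb from the start of Cxcl5 to that of Cxcl2. The platelet chemokines Ppbp and Pf4, and Cxcl15, lie between them and had 0 counts in every library. The counts of the cluster came almost wholly from its end with Cxcl1 and Cxcl2. The gene Mthfd2l, which encodes a folate enzyme and was picked after its values were seen, starts 27.2 kb beyond the start of Cxcl2. It had 2013 counts in PP2AcWT and 1762 in PP2AcKO, and at -0.08 on the log2 scale (SE 0.12, adjusted p = 0.588) it did not pass the test.

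**Figure D3:**
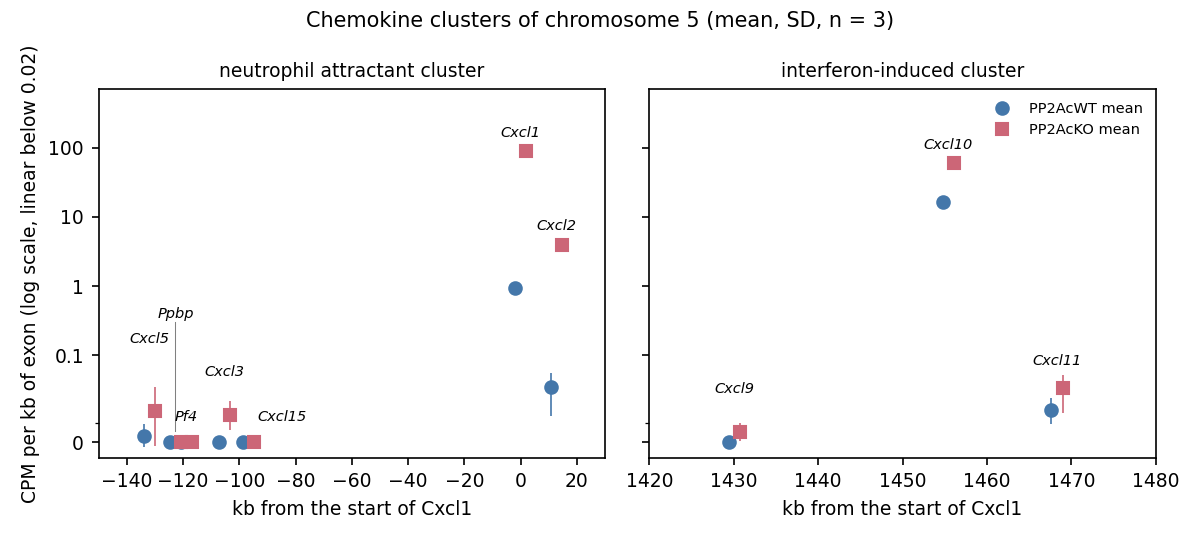
Mean CPM per kb of exon (y axis, log above 0.02 and linear below) of the chemokines in the clusters of chromosome 5, by the distance of their starts from that of Cxcl1 (x axis); circles are PP2AcWT, squares PP2AcKO, bars SD over 3 libraries. Cxcl1, Cxcl2 and Cxcl10 stand well above the other genes of their clusters in PP2AcKO.

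Of the interferon-induced group, Cxcl10 alone was expressed well, and it rose. Cxcl10 (ENSMUSG00000034855.13, chromosome 5, 92346638 to 92348889, minus strand), also called IP-10, was at 39.1, 34.9 and 38.3 CPM in PP2AcWT 1, 2 and 3 and at 142, 130 and 134 CPM in PP2AcKO 1, 2 and 3. The wild-type libraries already held the message at a level far above the floor, and all 3 PP2AcKO libraries were higher. The group means were 37.4 ± 2.27 and 136 ± 5.67 CPM (SD, n = 3), and the log2 fold change was 1.86 (95% interval 1.69 to 2.02, SE 0.07, adjusted p = 1.11e-07). Larger absolute changes were found in 9.14% of the tested genes. From the opposite strand, exons of Art3 cover 5.91% of the exon bases of Cxcl10, but Art3 had only 1 and 6 counts.

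Cxcl9 and Cxcl11, which flank Cxcl10 and share its receptor, were not appreciably present. Cxcl9 (92321347 to 92328079, minus strand) had 0 counts in every PP2AcWT library and 0, 1 and 1 in PP2AcKO 1, 2 and 3, which is under the floor in both groups. A count of 0 over the PP2AcWT group allows a level of up to 0.0222 CPM. Cxcl11 (92359544 to 92365485, minus strand) had 5, 2 and 2 counts in PP2AcWT and 8, 2 and 6 in PP2AcKO, and these groups overlap. Its ratio of 1.92 has a counting interval of 0.800 to 4.94. Exons of Gm2673 on the other strand cover 41.7% of the Cxcl11 exon bases, and without a stated strand setting its few reads cannot be assigned to either gene with certainty.

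The homeostatic and membrane-bound chemokines moved both ways. Cxcl12 (ENSMUSG00000061353.11, chromosome 6, 117168535 to 117181367, plus strand), also called SDF-1, was at 36.6, 35.02 and 33.4 CPM in PP2AcWT 1, 2 and 3 and at 12.1, 11.7 and 10.3 CPM in PP2AcKO 1, 2 and 3. All PP2AcKO libraries were lower, by a log2 fold change of -1.62 (95% interval -1.83 to -1.42, SE 0.09, adjusted p = 7.53e-07), 3.08-fold. The means were 35.0045 ± 1.56 and 11.4 ± 0.938 CPM (SD, n = 3).

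Cx3cl1 (ENSMUSG00000031778.13, chromosome 8, 94772009 to 94782427, plus strand) encodes fractalkine, the ligand of the microglial and monocyte receptor CX3CR1. It was at 58.2, 64.8 and 64.0 CPM in PP2AcWT 1, 2 and 3 and at 21.1, 25.3 and 23.3 CPM in PP2AcKO 1, 2 and 3. Here too the groups were far apart, with means of 62.4 ± 3.58 and 23.2 ± 2.12 CPM (SD, n = 3) and a log2 fold change of -1.42 (95% interval -1.63 to -1.22, SE 0.09, adjusted p = 1.59e-06). The summed level of 9 glioma and glial markers was also lower in PP2AcKO (5230 to 5458 against 2263 to 2403 CPM), and followed Vim, while Sox9 and Pdgfra of that list rose. The sum of the macrophage, monocyte and microglia markers was lower through Tmem119, while Mrc1 and Cd68 rose and the rest were too rare to test. The part of these cell types in the lower Cxcl12 and Cx3cl1 was not tested. Within 150 kb on chromosome 8 lie the CC chemokine genes Ccl22 and Ccl17, picked after their values were seen, which had 0 and 0, and 1 and 0 counts in PP2AcWT and PP2AcKO.

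Cxcl16 (ENSMUSG00000018920.11, chromosome 11, 70453983 to 70459984, minus strand), the other membrane-anchored chemokine, went the opposite way. It was at 2.33, 1.97 and 2.29 CPM in PP2AcWT 1, 2 and 3 and at 7.17, 7.81 and 7.79 CPM in PP2AcKO 1, 2 and 3, with no overlap. The means of 2.20 ± 0.196 and 7.59 ± 0.364 CPM (SD, n = 3) correspond to a log2 fold change of 1.79 (95% interval 1.52 to 2.05, SE 0.12, adjusted p = 1.93e-06). From the opposite strand, exons of Zmynd15 cover 18.3% of the exon bases of Cxcl16, and Zmynd15 had 59 and 82 counts beside the 297 and 945 of Cxcl16.

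Scaled by exon length, the make-up of these chemokine messages was different in the 2 groups. In PP2AcWT the order was Cxcl10 (16.6 ± 1.01 CPM per kb), Cx3cl1 (15.9 ± 0.912), Cxcl12 (4.28 ± 0.191), Cxcl1 (0.951 ± 0.102), Cxcl16 (0.728 ± 0.0649) and Cxcl2 (0.0350 ± 0.0215). The first pair overlapped between libraries, so their order is not settled, and with the longest transcript as length it turned, 16.8 for Cxcl10 against 18.8 for Cx3cl1. In PP2AcKO the order was Cxcl1 (89.2 ± 4.48), Cxcl10 (60.2 ± 2.52), Cx3cl1 (5.91 ± 0.540), Cxcl2 (3.97 ± 0.339), Cxcl16 (2.51 ± 0.120) and Cxcl12 (1.39 ± 0.115), and none of these neighbours overlapped.

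Summed over the 10 genes, the level was 38.5 ± 0.692 CPM per kb in PP2AcWT and 163 ± 3.09 in PP2AcKO. Neutrophil attractants made up 2.35% to 2.78% of that sum in the PP2AcWT libraries and 54.9% to 58.3% in the PP2AcKO libraries. The homeostatic and membrane-bound genes went from 52.1% to 56.7% down to 5.76% to 6.38%. The interferon-induced genes, nearly all Cxcl10, held 41.0% to 45.1% and 35.3% to 39.4%, so their share was lower although their level was higher. These shares are a description of the sum, with no test.

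**Figure D4:**
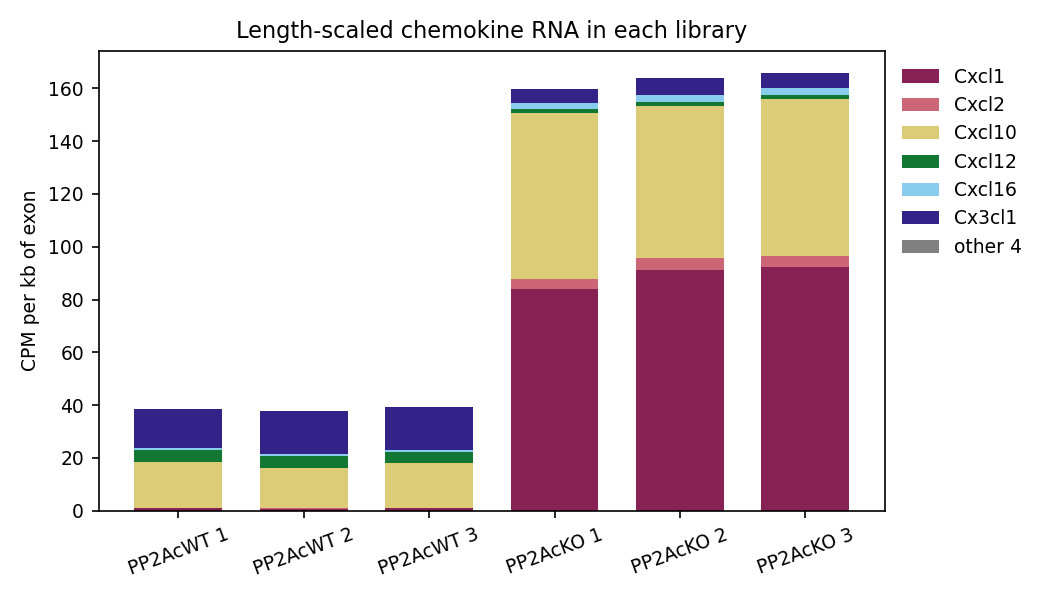
CPM per kb of exon of the chemokines, stacked for each library (x axis), with Cxcl3, Cxcl5, Cxcl9 and Cxcl11 as the other 4. The stacks reach 37.8 to 39.2 in PP2AcWT, mostly Cxcl10 and Cx3cl1, and 160 to 166 in PP2AcKO, mostly Cxcl1 and Cxcl10.

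The receptors of these chemokines were mostly rare. Of 9 receptor genes 4 could be tested, of which 2 rose, 1 fell and 1 did not pass. Cxcr3 and Cxcr6 passed the filter only through the group in which they were high, so these counts are given as a description. Cxcr4, the receptor of Cxcl12, was at 5.76, 6.89 and 7.25 CPM in PP2AcWT and at 20.8, 20.4 and 21.3 CPM in PP2AcKO, higher by 1.65 ± 0.10 (SE) on the log2 scale, at an adjusted p of 1.7e-06, so ligand and receptor moved in opposite directions. Ackr3, which scavenges Cxcl12, was at 7.14 ± 0.451 and 8.05 ± 0.783 CPM (SD, n = 3), and its log2 fold change of 0.18 (SE 0.11, adjusted p = 0.181) did not pass. Cxcr3, the receptor of Cxcl10, had 5 counts in PP2AcWT and 241 in PP2AcKO (0.0337 ± 0.0403 to 1.94 ± 0.177 CPM, adjusted p = 4.36e-06), and T and NK cell markers were at or near 0 in the same libraries. Cxcr6, the receptor of Cxcl16, went the other way from its ligand, with 105 against 4 counts (log2 fold change -4.48, SE 0.46, adjusted p = 3.27e-05). Cxcr2, the receptor of the neutrophil attractants, was below the filter with 1 and 14 counts, a ratio of 15.1 (95% counting interval 2.3 to 640). Also below it were Cxcr1 (0 and 1), Cx3cr1 (7 and 4), Ackr1 (1 and 0) and Cxcr5 (0 and 0).

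Among other CXC and XC chemokines, Cxcl14, a homeostatic epithelial chemokine, was the one of 7 that could be tested, and it fell from 10.6 ± 0.651 to 6.35 ± 0.522 CPM, at -0.74 on the log2 scale (SE 0.10, adjusted p = 0.000227). Cxcl13 had 2 and 0 counts, Cxcl17 had 3 and 1, and Cxcl15, Pf4, Ppbp and Xcl1 had 0. Of 7 proteases that shed or trim chemokines, 6 were tested, 4 rose and 2 fell, where 31.9% and 32.1% of all tested genes did. Mmp12, Mmp8 and Dpp4 passed the filter only through the group in which they were high, so these counts too are a description. Adam17, a sheddase of Cx3cl1 upon stimulation, rose from 72.0 ± 0.912 to 126 ± 4.34 CPM (log2 fold change 0.81, adjusted p = 5.68e-06). Adam10 of the same list fell, from 167 ± 11.6 to 129 ± 14.9 CPM (log2 fold change -0.37, adjusted p = 0.00714). Mmp12, the macrophage elastase, which trims neutrophil attractants, had 10 counts against 1306 (log2 fold change 7.08, adjusted p = 1.11e-07). Dpp4, which cuts the N terminus of Cxcl10 and Cxcl12, had 39 counts in PP2AcWT and 0 in PP2AcKO (adjusted p = 0.000339). With 3 counts over the group taken as the floor it was 12.02-fold lower, and the 95% counting interval of its ratio reaches up to 0.107. Mmp8, the neutrophil collagenase, had 2 against 42 counts, a ratio of 22.7 (95% counting interval 5.91 to 194).

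Genes that act upstream of these chemokines moved mostly up. Of 24 NF-kB and IL-17 side genes, all tested, 19 rose, 2 fell and 3 did not pass (median log2 fold change 0.75), where 31.9% of all tested genes rose and 32.1% fell, with a median of -0.0074. Nfkbiz, a nuclear cofactor for secondary NF-kB targets, rose from 25.1 ± 1.502 to 192 ± 3.03 CPM, or by 2.94 ± 0.07 (SE) on the log2 scale, at an adjusted p of 1.08e-08. Nfkbia, the inhibitor IkB-alpha and itself a target, rose 3.99-fold, and Tnfaip3, the feedback enzyme A20, 3.23-fold. The transcription factor gene Cebpd rose from 30.7 ± 4.04 to 319 ± 52.1 CPM, with PP2AcKO 1 at 259 and the others at 345 and 352. The 2 that fell were Ikbkg and Il17rc, 1.45-fold and 1.79-fold.

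Of 17 interferon side genes 12 rose, 2 fell and 3 did not pass (median log2 fold change 1.17), against the same 31.9% and 32.1% of all tested genes. Usp18, a brake on interferon receptor signalling, rose from 28.2 ± 0.709 to 148 ± 5.75 CPM, or by 2.39 ± 0.07 (SE) on the log2 scale, at an adjusted p of 2.07e-08. Irf7 rose 5.23-fold, and Stat2 and Irf9, parts of the factor that binds interferon response elements, rose 2.85-fold and 2.25-fold. The 2 that fell were the transcription factor genes Irf1 and Irf3, 1.34-fold and 1.33-fold. A list of 12 genes covered chemokine mRNA decay, whether they promote or restrain it. Of the 12, 8 rose, 1 fell and 3 did not pass (median log2 fold change 0.31), again beside 31.9% and 32.1% of all tested genes. The number that fell was 2 with the replicate number as a block, without PP2AcWT 1, or without both libraries numbered 1. Zc3h12a, the RNase regnase-1 that degrades cytokine messages, rose from 9.65 ± 0.698 to 131 ± 14.0 CPM, or by 3.76 ± 0.11 (SE) on the log2 scale, at an adjusted p of 2.07e-08, and Zfp36, which encodes the AU-rich element binding protein tristetraprolin, rose 3.63-fold. Elavl1 and Zfp36l1 of the same list rose 1.86-fold and 1.59-fold, and Hnrnpd fell 1.30-fold. Zc3h12a, Zfp36 and Elavl1 were thus higher in the same libraries as Cxcl1 and Cxcl2.

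**Figure D5:**
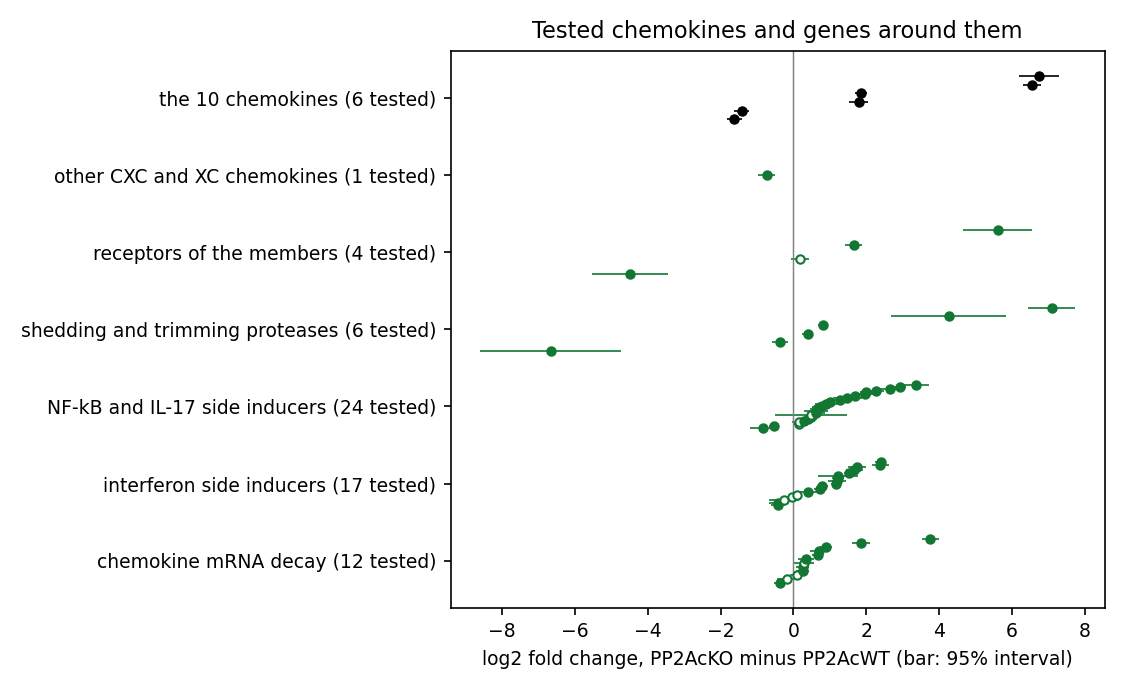
Log2 fold change, PP2AcKO minus PP2AcWT, of the 6 tested chemokines (black) and of the tested genes of each list around them (green), with 95% intervals as bars; filled points passed an adjusted p of 0.05 and open points did not. Cxcl1 and Cxcl2 lie at 6.55 and 6.74, above all genes of the NF-kB, interferon and mRNA decay lists. Mmp12 of the protease list lies at 7.08.

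The genes whose profiles over the 6 libraries were most like those of the leading member of each role class were found by the root mean square difference of mean-centred log2 CPM, a measure led by the difference between the groups. For Cxcl1 these were the stromelysin gene Mmp10 (difference 0.15), the chemokine gene Ccl20 (0.16) and Sprr2h, a small proline-rich protein gene (0.20). For Cxcl10 they were Btg1 (0.039), Gramd3 (0.046) and C9orf72 (0.047). For Cx3cl1 they were Marveld1 (0.026), Mthfd1 (0.044) and Ncaph2 (0.044). The nearest profiles to Cxcl1 were thus farther from it than those to Cxcl10 or Cx3cl1, whose fold changes more genes have. Sprr2h had only 5 counts in PP2AcWT and passed the filter only through its PP2AcKO libraries. Its fitted log2 fold change was 7.73, against 6.55 for Cxcl1. The profiles were computed with a prior count of 2, which draws in a gene so near 0.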

How the data were processed

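RNA was measured in 6 libraries, and the deposited table holds unnormalized read counts by gene symbol, with a column for each library. Per the submitters' processing notes, which give no roles, the tools were edgeR 3.34.0, limma 3.48.3, HTSeq 0.11.2, STAR 2.7.1a and fastp 0.20.0, with mm10 and GRCm38 named as builds. The annotation release is not given in the sources used here, nor is the strand setting.

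Genes were kept by filterByExpr (14877 of 55453), scaled by TMM (factors 0.967 to 1.035) and tested with glmQLFTest in edgeR 4.0.16 (R 4.3.3), Benjamini-Hochberg over all, threshold 0.05. DESeq2 1.42.0 and limma 3.58.1 served as alternatives, and the scripts were tested on simulated data. CPM uses the counts summed over the kept genes and the TMM factors. SE is the absolute log2 fold change over the root of F. Ratios of rare genes carry 95% exact counting intervals, and floors are 3 counts over a group. Both cover counting error only. Lengths and positions came from GENCODE M21 (GRCm38), matched by symbol, and promoters from RefSeq, GRCm38.p6.

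The members and lists were chosen with earlier results of these data known. Named genes are the 10 members, their receptors, Ppp2ca, and up to 4 members of each other list by smallest adjusted p. They also include the 3 nearest profiles of the most abundant member of each role class. Outside that rule, Adam10, Ikbkg, Il17rc, Irf1, Irf3 and Hnrnpd were named because they fell, after their values were seen. No libraries looked alike within sampling noise (chi-square per degree of freedom at least 3.41), and both libraries numbered 1 stood apart (29.7 to 48.4 against 3.41 and 4.61 for the other pairs). Deviations from the group means of same-numbered libraries correlated at 0.44, 0.16 and 0.15. Any pairing by number rests on these data and not on the labels. The main test did not pair the libraries, and the replicate number served as a block only as an alternative. Libraries numbered 2 and 3 correlated as well across numbers (0.19 and 0.15), so only the libraries numbered 1 were set apart by number.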

Additional observations from a re-analysis of the deposited data

How the results depend on the processing

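The 6 tested chemokines kept their direction and stayed past the threshold under all 16 alternatives each: other scalings, filters and tests, a fold change of 1.5, the replicate block, each library left out, and both libraries numbered 1 left out. Their log2 fold changes ran from 6.46 to 6.66 (Cxcl1), 6.39 to 7.15 (Cxcl2), 1.77 to 1.89 (Cxcl10), 1.70 to 1.88 (Cxcl16), -1.71 to -1.55 (Cxcl12) and -1.51 to -1.35 (Cx3cl1). The stricter filter, at least 5 CPM in 3 libraries, kept all 6. Cxcl1, Cxcl2 and Cxcl16 passed it only through their PP2AcKO libraries, so their being kept is no check of their rise. With no filter the 4 rare chemokines did not pass (adjusted p of 0.0703 for Cxcl3, 0.45 for Cxcl5, 0.363 for Cxcl9 and 0.389 for Cxcl11). The depth limits them to counting intervals.

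Over all genes the calls, 4752 higher and 4773 lower, moved by over 1.5 times against a fold change of 1.5, to 2009 and 1957. That threshold also left 12 of the 19 NF-kB and IL-17 side genes that rose, 3 of the 8 decay genes that rose, 1 of the 2 proteases that fell, and 0 of the genes that fell in the other lists, receptors aside. At least 5 CPM in 3 libraries left 1 receptor higher and 0 lower, and 1 protease lower, since fewer genes were tested. With the replicate number as a block 5721 genes were higher and 5774 lower. The block changed no call of the chemokines, and of the list counts it moved by over 1.5 times only that of decay genes that fell, from 1 to 2. Leaving out each library in turn gave 4258 to 4942 genes higher and 4199 to 4759 lower. With the longest transcript as length Cxcl12 was at 6.22 and 2.02 CPM per kb.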
